A study of Bos taurus with 30 samples.

Results

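miR-191 and miR-425 form a small microRNA (miRNA) cluster, and 4 of the 1030 bovine miRNAs in the deposited table belong to it by name: bta-miR-191, bta-miR-191b, bta-miR-425-5p and bta-miR-425-3p, written below without the species prefix. They were followed in the testes of 30 Holstein-Friesian bull calves, with 1 small RNA library per calf. From 2 weeks of age, 15 calves received the High diet: 10 L of milk replacer a day, made with 1.5 kg of powder, and concentrate without limit, to gain 1.0 kg daily. The other 15 received the Moderate diet: 4 L of milk replacer a day, made with 0.5 kg of powder, and 0.5 kg of concentrate, to gain 0.5 kg daily. All were sampled at 12 weeks. The study asked whether early nutrition alters the miRNAs of the calf testis. The cluster was chosen from the measured diet comparison of these same libraries, in which miR-425-5p was known to differ. The diet values below are therefore a description of these libraries and support nothing beyond them.

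A miRNA is cut from a hairpin in a longer transcript, and the resulting short duplex gives up to 2 mature strands, the 5p arm and the 3p arm, of which usually one is loaded into the silencing complex and kept. Hairpins that lie close together on the same strand are often cut from a shared transcript. In humans the miR-191 and miR-425 hairpins lie within the gene DALRD3, and miR-191 is widely used as a reference miRNA in quantitative PCR. In the RefSeq gene table of the cattle assembly ARS-UCD2.0, no protein-coding gene contains the bovine hairpins. MIR191, MIR191B and MIR425 follow one another between NDUFAF3 and DALRD3, and MIR191B lies within the span of MIR191. Reads of miR-191b and miR-191 therefore come from overlapping genes, and no source used here says how they were told apart, which leaves miR-191b uncertain. The table pairs no host transcript with the cluster.

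Values are given as deposited. They were read as CPM on library sizes adjusted by edgeR's TMM factors and are called TMM-scaled CPM. Reads recovered from them summed to 6.0003 to 19.98 megareads per library, with 24 libraries (11 High, 13 Moderate) under 12 megareads and 6 (4 High, 2 Moderate) above. Diet is the diet characteristic of each sample, and for 18 of the 30 it conflicts with the title of the sample. The library code, which ends in H or L, goes with the characteristic in every library. Labels said below to agree or conflict are the characteristic and the title. One library, Moderate replicate 5, stood apart: 84.8% of its reads belonged to miR-10b, compared with 37.0% to 49.0% elsewhere. Results are therefore given with and without it. The libraries hold RNA of whole testis, in which fewer cells of a type and less RNA per cell cannot be told apart.

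The members lay at very different levels. By mean value over the 30 libraries, miR-191 was number 8 of the 387 miRNAs tested and miR-425-5p number 94, while miR-425-3p lay near the middle of the order and miR-191b was number 326. miR-191 took 1.64% ± 0.274 of all reads (SD, n = 30). The number of recovered reads per library had a median of 135490 for miR-191, 2182 for miR-425-5p, 154 for miR-425-3p and 21.5 for miR-191b. All 4 were above 0 in all 30 libraries and gave whole reads in all 30. They also passed the filter on low values, set at a value of 1 or more in 15 or more libraries. These levels are read numbers and not numbers of molecules, since library preparation captures some sequences better than others.

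Neighbours in this order varied in how often they exceeded the member within a library. For miR-191 these were miR-92a (29 of 30 libraries), miR-27b (29), let-7f (22) and miR-127 (18). For miR-425-5p they were miR-15a (28), miR-20a (23), miR-146a (10) and miR-424-3p (12). miR-27b, just above miR-191, exceeded it in 29 of 30 libraries, with a mean value of 22084 ± 2993 (SD, n = 30). let-7f, just below it by mean, was above miR-191 in 22 of 30 libraries; the mean of miR-191 includes Moderate replicate 5, and its median was 15212. miR-425-5p, at 251 ± 33.96, lay between miR-20a at 286 ± 56.2 and miR-146a at 246 ± 158 (SD, n = 30 each). miR-425-3p, at 18.1 ± 1.87, lay between miR-301b at 18.3 ± 5.18 and miR-3432a at 17.9 ± 3.18, and it was exceeded by them in 13 and 12 libraries. miR-191b lay between miR-2285cm and miR-2285aj-5p, members of a ruminant miRNA family, each of which exceeded it in 15 of 30 libraries.

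miR-425-5p, the abundant arm of miR-425, was higher under High. Its value was lowest at 226, had a median of 267 and was highest at 330 in the 15 High libraries, against 189, 240 and 274 in the 15 Moderate libraries. The ranges overlapped, with 6 High libraries above every Moderate one, 6 Moderate libraries below every High one, and 14 of 15 High libraries above the Moderate median. The mean was 272 ± 28.5 under High and 231 ± 26.2 under Moderate (SD, n = 15 each). The log2 fold change, High over Moderate, was 0.24, with a 95% confidence interval of 0.11 to 0.36, on the log2(value + 0.5) scale. Without Moderate replicate 5 it was 0.22 (0.10 to 0.33). It was the 1 of the 4 members that passed an adjusted p of 0.05 in limma, where 4.91% of all 387 miRNAs passed. It also passed in edgeR, where 9.52% of 378 miRNAs passed, and in DESeq2, where 5.97% of 838 did. The 838 are all miRNAs above 0 in any library. DESeq2 left some of them without an adjusted p, so its share is not comparable with those of limma and edgeR. miR-425-5p passed in 29 of the 30 fits that left out 1 library each. It missed the threshold without High replicate 5 (log2 fold change 0.23, 14 High against 15 Moderate). It also missed the threshold in limma without a filter on low values (0.24), in the 12 libraries with 1 diet in both labels (0.31), in the 18 with conflicting labels (0.19) and in the 24 libraries under 12 megareads (0.25). With the diet taken from the sample titles, the log2 fold change was 0.013.

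**Figure D1:**
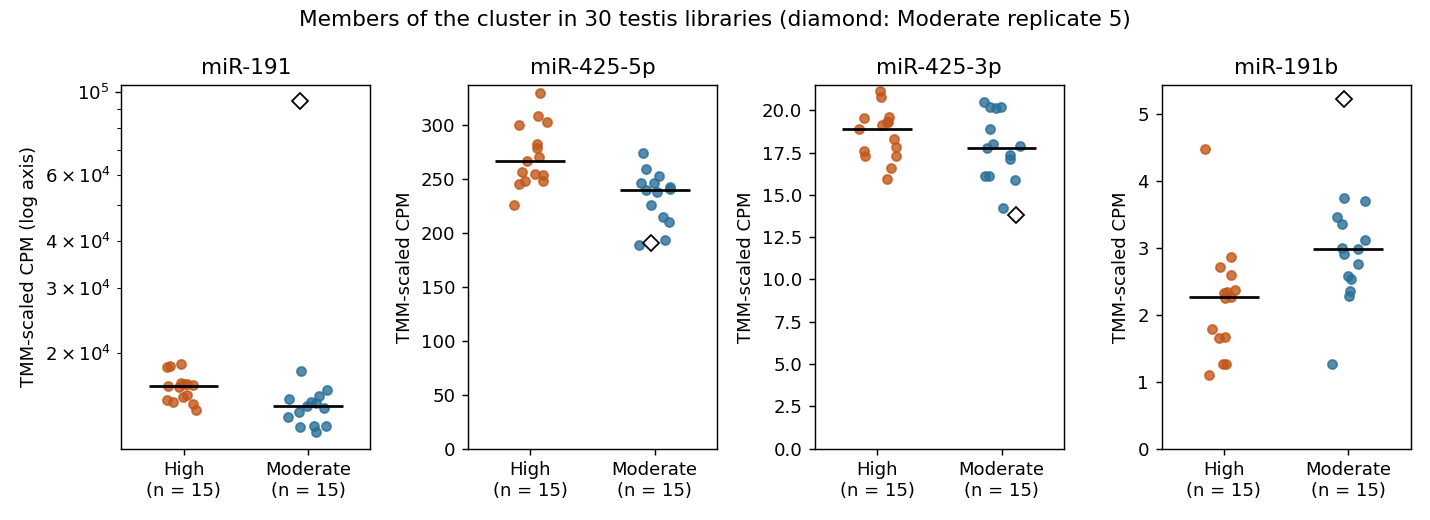
Values of the 4 members in TMM-scaled CPM, 1 point per library, by diet (High left, Moderate right, n = 15 each), with the median as a line and Moderate replicate 5 as an open diamond; the miR-191 axis is logarithmic and the other axes start at 0. The diets overlap for every member. The median is higher under High for miR-191, miR-425-5p and miR-425-3p and lower for miR-191b, and Moderate replicate 5 holds the highest miR-191 value (94505).

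miR-191, the dominant member, ranged from 14071 over a median of 16382 to 18703 in the High libraries and from 12302 over a median of 14476 to 94505 in the Moderate libraries. The highest value belongs to Moderate replicate 5, and the next highest Moderate library stood at 17876. High libraries lay above the Moderate median in 14 of 15 cases, and 6 Moderate libraries lay below every High library. The mean was 16233 ± 1423 under High (SD, n = 15), against 19675 ± 20753 under Moderate (n = 15) or 14330 ± 1517 without replicate 5 (n = 14). The log2 fold change was 0.00 (95% confidence interval -0.36 to 0.36) in 30 libraries and did not pass in limma. In the same libraries it was -0.41 in edgeR, which did not call it, and 0.19 in DESeq2, which did after replacing the reads of Moderate replicate 5. In the 29 libraries it was 0.18 (0.08 to 0.29) and passed in limma, where 11.7% of 385 miRNAs passed. Of the 30 fits that left out 1 library each, this was the 1 in which miR-191 passed. In DESeq2 and edgeR on the 29 libraries, where 7.16% of the 838 miRNAs above 0 and 12.6% of 381 passed, miR-191 passed with 0.19 in each. With the diet taken from the titles it was -0.21 in 30 libraries and -0.032 in 29. The share of all reads was 1.75% ± 0.227 under High and 1.52% ± 0.274 under Moderate (SD, n = 15 each), with each of the 15 High libraries above the median of the Moderate ones. On this scale the log2 fold change of miR-191, 0.21 in 30 libraries, equalled the median of all tested miRNAs (0.21), and in 29 libraries it was 0.18 above that median.

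miR-425-3p, the minor arm, had values of 15.9 at the lowest, 18.9 in the median and 21.1 at the highest in the High libraries, against 13.8, 17.8 and 20.5 in the Moderate libraries. The diets overlapped over most of their range, with 10 of 15 High libraries above the Moderate median. The mean was 18.6 ± 1.47 under High and 17.6 ± 2.14 under Moderate (SD, n = 15 each). The log2 fold change of 0.08 (95% confidence interval -0.05 to 0.21) did not pass, and in the 29 libraries it was 0.06 (-0.06 to 0.17).

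miR-191b was the 1 member with a lower median under High. It ranged from 1.10 over a median of 2.26 to 4.48 in the High libraries and from 1.27 over a median of 2.98 to 5.23 in the Moderate libraries. Only 1 of 15 High libraries, replicate 15, lay above the Moderate median. The mean was 2.20 ± 0.840 under High and 3.02 ± 0.877 under Moderate (SD, n = 15 each). The log2 fold change of -0.40 (95% confidence interval -0.70 to -0.11) did not pass after adjustment in 30 libraries, and neither did the value of -0.35 (-0.63 to -0.07) in 29. It passed in 2 of the 30 fits that left out 1 library each, without High replicate 15 and without Moderate replicate 11, the highest High and the lowest Moderate library. These values rest on 10 to 68 reads per library. Within the diets, the variance of its reads was 3.62 times the counting expectation under High and 1.46 times under Moderate, against 34.1 and 24.9 times for miR-425-5p.

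The scaling of the libraries moved these differences, as the plot of fold changes shows. With library totals in place of the deposited scaling the median log2 fold change of all tested miRNAs was 0.21, against 0.03 with the deposited values. On that scale miR-425-5p stood at 0.45 (95% confidence interval 0.09 to 0.80) and did not pass, and neither did any other miRNA in limma (0 of 389, with 61 at an unadjusted p under 0.05). edgeR and DESeq2, which called 36 and 50 miRNAs, used their own scaling and not library totals. Relative to the shift of all miRNAs it was 0.23 above the median with library totals and 0.20 above it with the deposited values. In 29 libraries with library totals, where the median was 0.07, miR-425-5p stood at 0.29 (0.14 to 0.44) and miR-191 at 0.25 (0.12 to 0.39), and both passed, as did 7.97% of 389 miRNAs. miR-191b stood at -0.23 (-0.54 to 0.09) with library totals in 30 libraries.

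**Figure D2:**
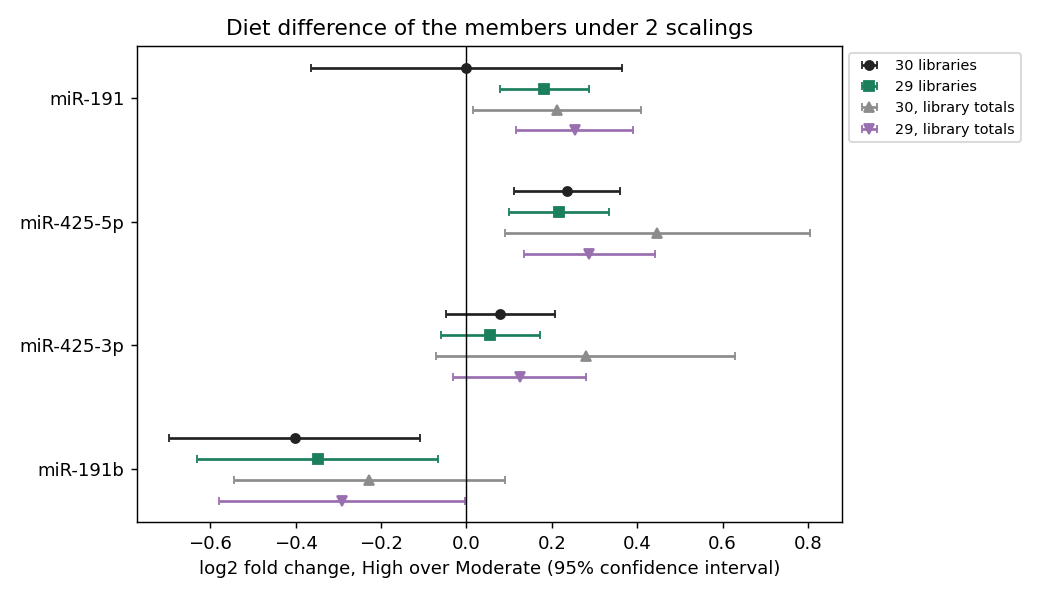
Log2 fold change of each member, High over Moderate, with its 95% confidence interval from limma, for the deposited TMM-scaled values and for library totals, in 30 libraries and in the 29 without Moderate replicate 5. miR-425-5p lies above 0 in all 4 fits, miR-191 lies at 0.00 with the deposited values of 30 libraries and above 0 in the other 3, and miR-191b lies below 0 in all 4.

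The arms of miR-425 were compared within each library, where the scaling cancels in the ratio of reads. The 5p arm was the abundant one in every library, with 12.0 to 16.9 reads (median 14.6) per 3p read in the High libraries and 9.61 to 16.3 (median 13.7) in the Moderate libraries. The 3p arm thus took 6.43% ± 0.591 of the miR-425 reads under High and 7.14% ± 1.07 under Moderate (SD, n = 15 each). The 4 lowest ratios of 5p to 3p all belonged to Moderate libraries, and 12 of 15 High libraries lay above the Moderate median. The difference in log2 ratio, High minus Moderate, was 0.16 (95% confidence interval 0.02 to 0.29) on log2(value + 0.5). The added 0.5 leaves a small part of the scaling in this ratio. With 0.1 or 2 added instead, the difference was 0.15 and 0.16. The interval reached below 0 in libraries with 1 diet in both labels (0.24, -0.02 to 0.51), in those with conflicting labels (0.10, -0.08 to 0.27) and without Moderate replicate 1, 4 or 8 (0.12, 0.13 and 0.13). By the diet in the titles the difference was 0.04 (-0.11 to 0.19). It was 0.21 (0.05 to 0.37) in the libraries under 12 megareads and -0.14 (-0.36 to 0.08) in the 6 deeper ones, of which 4 were High and 2 Moderate. The variance of the 3p share was 1.88 times the counting expectation among High libraries and 4.16 times among Moderate ones.

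miR-191 and miR-425-5p kept a similar proportion in 29 libraries. The High libraries held 49.8 to 66.6 miR-191 reads per miR-425-5p read (median 60.6), and the Moderate libraries without replicate 5 held 53.6 to 68.9 (median 60.3). The coefficient of variation of this ratio was 8.40% over the 29 libraries, below that of miR-191 (11.3%) and of miR-425-5p (12.8%). In the 6 libraries of 12 megareads or more it was 13.8%, above that of miR-191 (9.81%) and of miR-425-5p (9.02%). Without Moderate replicate 5 the log2 ratio differed between diets by -0.04 (95% confidence interval -0.13 to 0.06), and with it by -0.24 (-0.66 to 0.19). In Moderate replicate 5 the ratio was 494.

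The reads of miR-191b did not keep such a proportion to those of miR-191, the gene that spans it. The High libraries held 6.74 to 27.3 miR-191b reads per 100000 reads of miR-191 (median 13.6), against 5.54 to 30.4 (median 18.8) in the Moderate libraries. All High libraries but replicate 15 were below the median of the Moderate ones. The lowest value belonged to Moderate replicate 5.

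**Figure D3:**
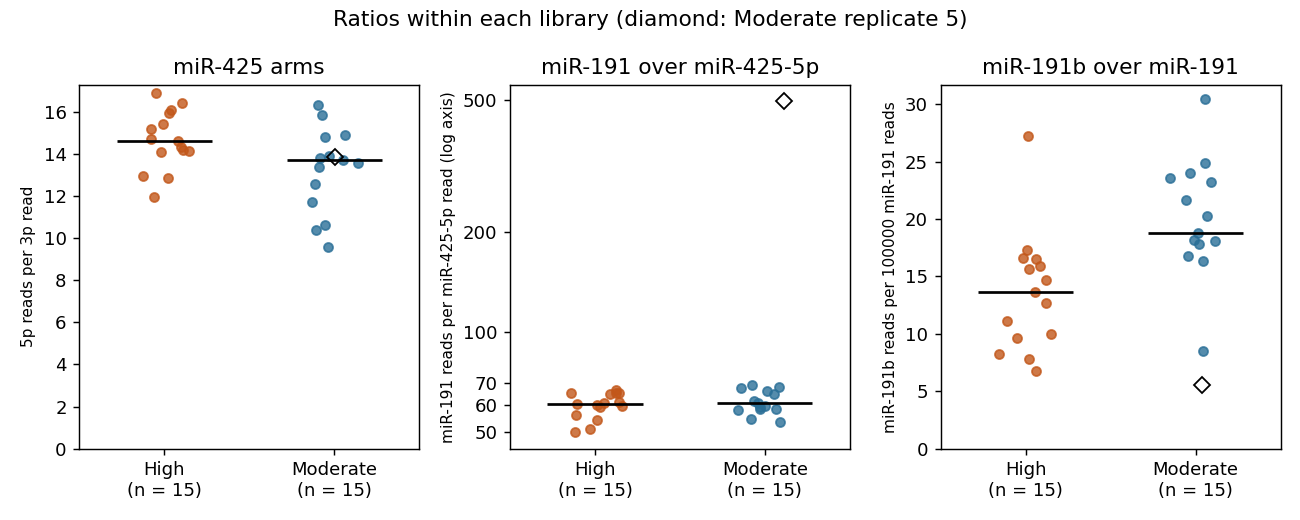
Ratios of recovered reads within each library, by diet (High left, Moderate right, n = 15 each), with the median as a line and Moderate replicate 5 as an open diamond; the middle axis is logarithmic. The ratio of miR-191 to miR-425-5p stays between 49.8 and 68.9 in 29 libraries and reaches 494 in Moderate replicate 5, where the ratio of the miR-425 arms lies inside the range of the others.

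Moderate replicate 5 separated miR-191 from the miR-425 arms. Its miR-191 value of 94505 was 6.25 times the median of the other 29 libraries, the number 4 ratio of the 387 tested, while the median ratio of all tested miRNAs was 0.751. miR-425-5p at 191.2 and miR-425-3p at 13.8 stood at 0.769 and 0.766 times the median of the others, close to that median ratio. The miR-425-3p value lay below the lowest of the others (14.2). miR-191b stood at 2.06 times their median. As CPM on unadjusted library totals, miR-191 stood at 22372, inside the range of 11917 to 22704 in the other 29. On this scale miR-425-5p stood at 45.3, below the range of 203 to 405, and miR-425-3p at 3.27, below the range of 13.2 to 24.2. miR-191b, at 11 reads, was the highest of all libraries on the deposited scale (5.23) and within the range of the others on library totals (1.24). With upper-quartile scaling, miR-425-5p stood at 1.00 and miR-191 at 8.15 times the median of the others. Which of them stood apart from the other libraries thus differed with the scaling, whereas the ratio between them does not depend on it. In all, 71 of the 387 miRNAs lay above and 174 below all other libraries in it on the deposited scale. The part of the high miR-10b share in this was not tested.

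Across libraries, miR-191 and miR-425-5p varied together once Moderate replicate 5 was left out. Over 6 pairs of members, Pearson's r on log2(value + 0.5) and Spearman's rho were computed, with two-sided permutation p-values from 100000 resamples adjusted by the Benjamini-Hochberg method. For miR-191 and miR-425-5p, r was 0.76 (permutation p = 1e-05, the smallest these resamples can give; adjusted p = 6e-05) and rho 0.68 (permutation p = 0.00011, adjusted p = 0.00066) in 29 libraries. In all 30 libraries r was -0.12 (permutation p = 0.449, adjusted p = 0.449) and rho 0.53 (permutation p = 0.00323, adjusted p = 0.0194). Without the 2 libraries farthest from the median of miR-191, one of which was Moderate replicate 5, r was 0.74 in the remaining 28, and without the 2 farthest among the 29 it was 0.70.

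Within diets the coefficients were positive once Moderate replicate 5 was left out. After the mean of each diet was subtracted, r was 0.64 in 29 libraries (permutation p = 0.00022, adjusted p = 0.00132). Within the 15 High libraries r was 0.55 (permutation p = 0.0346, adjusted p = 0.208), and within 14 Moderate libraries it was 0.71 (permutation p = 0.00459, adjusted p = 0.0275). With Moderate replicate 5, r was -0.30 within the 15 Moderate libraries (permutation p = 0.304) and -0.16 for deviations from the diet means in 30 libraries (permutation p = 0.432). In the 23 libraries under 12 megareads other than Moderate replicate 5, r was 0.86 (permutation p = 1e-05). Among the 6 libraries above that depth r was -0.14 and rho 0.14 (exact permutation p = 0.803 for each), so no relation was seen there, and 6 libraries leave both coefficients imprecise. The difference between the depth ranges was not tested.

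For the arms of miR-425 the relation depended on the scaling and on single libraries. For miR-425-5p and miR-425-3p, r was 0.37 in 30 libraries (permutation p = 0.0407, adjusted p = 0.122; rho 0.30, permutation p = 0.112, adjusted p = 0.336) and 0.25 in 29 (permutation p = 0.199, adjusted p = 0.527). Without Moderate replicate 1 r was 0.48 and passed (permutation p = 0.00749, adjusted p = 0.0449). With library totals it passed as well, at 0.92 in 30 libraries (permutation p = 1e-05, adjusted p = 6e-05) and 0.61 in 29 (permutation p = 0.00046, adjusted p = 0.00138). For miR-191 and miR-425-3p, r was -0.45 in 30 libraries (permutation p = 0.0190, adjusted p = 0.114; rho -0.12, permutation p = 0.533) and -0.03 in 29 (permutation p = 0.859). With library totals in 29 libraries it was 0.48 and passed (permutation p = 0.00821, adjusted p = 0.0164). It passed with a negative sign within the 15 Moderate libraries, at -0.60 (permutation p = 0.0027, adjusted p = 0.0162). For deviations from the diet means in 30 libraries it was -0.47 and passed too (permutation p = 0.00492, adjusted p = 0.0295). Without Moderate replicate 5 neither of these negative values passed, at -0.49 (permutation p = 0.0717, adjusted p = 0.215) and -0.19 (permutation p = 0.321, adjusted p = 0.637). miR-191b was not correlated past the threshold with any of the other 3, with r of 0.32 with miR-191, -0.25 with miR-425-5p and -0.28 with miR-425-3p in 30 libraries (permutation p = 0.107, 0.178 and 0.136, adjusted p = 0.204, 0.214 and 0.204). The low read numbers of miR-425-3p and miR-191b limit what these coefficients can show.

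**Figure D4:**
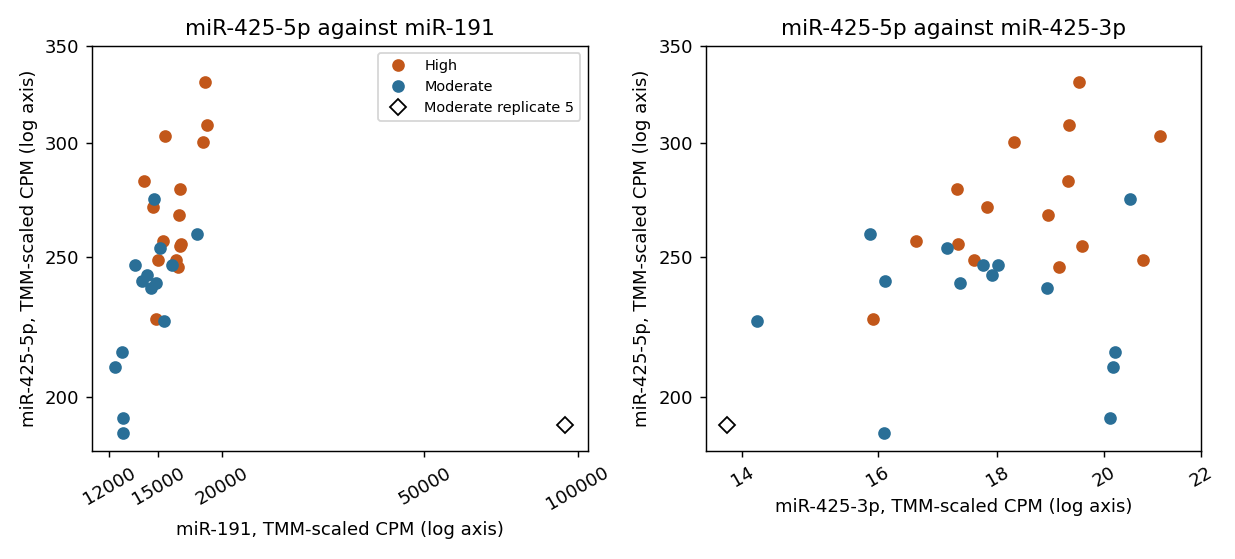
miR-425-5p against miR-191 (left) and against miR-425-3p (right), in TMM-scaled CPM on logarithmic axes, 1 point per library, coloured by diet. Outside Moderate replicate 5 (open diamond), libraries with more miR-191 hold more miR-425-5p (r = 0.76, n = 29), while the points of the miR-425 arms scatter (r = 0.25, n = 29).

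The miRNAs most like each member were taken by Spearman's rho over the 30 libraries among the other 386 tested, as a description, since all values in a library share its scaling. For miR-425-5p they were miR-22-3p (rho 0.89), miR-33a (0.75), which in mammals lies in the sterol regulator gene SREBF2 and represses cholesterol export, and miR-103 (0.73), an miRNA of the pantothenate kinase genes. miR-22-3p was at 12517 under High and 10149 under Moderate on average, and it was among the miRNAs that passed in limma (log2 fold change 0.30). miR-191 was number 24 in this order for miR-425-5p, and number 6 in 29 libraries. For miR-191 the leading 3 were miR-148b (0.72), miR-6120-3p (0.66) and miR-502b (0.64), with miR-425-5p number 9 in 30 libraries and number 2 in 29. For miR-425-3p they were miR-24 (0.57), miR-24-3p (0.48) and miR-452 (0.46), and its own 5p arm was number 40. For miR-191b they were miR-411c-3p (0.66), miR-483 (0.51) and miR-433 (0.44). Of these, miR-411c-3p (log2 fold change -0.35) and miR-483 (-0.45), which lies in the growth factor gene IGF2, passed in limma with lower values under High, and miR-433 (-0.34) did not pass.

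miR-191 was also set among miRNAs used as references in quantitative PCR, of which 14 entries, miR-191 included, were in the table and tested. In 29 libraries its coefficient of variation was 11.3%, number 80 from the lowest of 387 and number 30 of the 56 miRNAs with a mean value of at least 1000, whose median was 11.04%. Of the 13 other reference entries, 11 had a lower one, within a range of 5.58% (miR-25) to 15.8% (miR-26a). In all 30 libraries that of miR-191 was 81.1% and number 378 on the deposited scale. It differed with the scaling, at 16.7% with library totals and 105% with upper-quartile scaling in the same 30 libraries. miR-425-5p had 12.8% and miR-425-3p 9.39% in 29 libraries, and miR-191b, with its few reads, 32.4%. In limma, 0 of the 14 entries passed in 30 libraries, 3 had an unadjusted p under 0.05, edgeR called 1 (miR-484) and DESeq2 called 4 (miR-103, miR-16b, miR-191 and miR-484). In 29 libraries limma called miR-191 higher and miR-484 lower. Over all miRNAs, limma called 4.91% of 387 in 30 libraries and 11.7% of 385 in 29. The median log2 fold change of the 14 entries was 0.05 in 30 libraries and 0.07 in 29, beside 0.03 and 0.00 for all tested miRNAs.

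A list of intronic miRNAs of broadly expressed genes held 28 tested entries, the cluster included by its human host gene. In this list, miR-425-5p was the 1 that passed in limma in 30 libraries, and miR-191 and miR-425-5p were the 2 that passed in 29. Both belong to the cluster, which was chosen from this diet comparison. Over all miRNAs, 4.91% of 387 passed in 30 libraries and 11.7% of 385 in 29. In 30 libraries edgeR called 1 entry (miR-425-5p) and DESeq2 called 4 (miR-103, miR-16b, miR-191 and miR-425-5p). The median log2 fold change of the 28 entries was 0.08 in 30 libraries and 0.06 in 29, beside 0.03 and 0.00 for all tested miRNAs. Besides miR-425-5p, those with the smallest p were miR-103 (log2 fold change 0.12, at 2532 under High and 2332 under Moderate) and miR-342 (-0.18, at 190.6 under High and 217 under Moderate), which did not pass in limma.

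Markers of other cell types were read beside the cluster, and their part in its values was not tested. Of 3 tested miRNAs of meiotic and later germ cells, miR-34b and miR-34c passed in limma with higher values under High. Their log2 fold changes were 0.73 and 0.96. The other, miR-449a, stood at 0.02 and did not pass. DESeq2 called both miR-34b and miR-34c, and edgeR only miR-34c. By mean value miR-34c was the largest of the 3, at 112.7 under High and 64.6 under Moderate. The summed level of this list was 90.2 to 265 under High and 22.8 to 185 under Moderate (41.0 to 185 without replicate 5). Of 8 leukocyte entries none passed in limma in 30 libraries, 2 had an unadjusted p under 0.05, and neither edgeR nor DESeq2 called one. Their summed level was 2701 to 6954 under High and 2530 to 5674 under Moderate. Their median log2 fold change was -0.04 in 30 libraries and -0.09 in 29, beside 0.03 and 0.00 for all tested miRNAs. The 3 leukocyte entries with the smallest p went both ways in 30 libraries: miR-342 at -0.18, miR-146b at 0.91 and miR-155 at -0.17. In 29 libraries limma called miR-146b (log2 fold change 1.09). The 3 red blood cell miRNAs had a median log2 fold change of 0.25 and a summed level of 887 to 3606 under High and 755 to 7927 under Moderate (755 to 1870 without replicate 5). The median was -0.13 for the 2 smooth muscle entries, 0.05 for the 2 endothelial, -0.27 for the 4 tested epithelial, 0.16 for the 3 tested striated muscle, 0.04 for the 2 gonadal somatic and -0.13 for the 3 tested neural entries. The gonadal entries, miR-202 and miR-140, were present in all libraries, with a summed level of 3672 to 4590 under High and 1893 to 5057 under Moderate (3361 to 5057 without replicate 5). The hypoxia-induced miR-210 stood at 0.19. In limma, 0 of these passed in 30 libraries, with 1 epithelial and 1 striated muscle entry at an unadjusted p under 0.05. The striated muscle miR-499 was called by edgeR and DESeq2, and by limma in 29 libraries. Over all miRNAs, limma called 4.91% of 387 in 30 libraries and 11.7% of 385 in 29. Of the 387, 82 had an unadjusted p under 0.05. With so few entries per list, a count of 0 says little about a cell type. miR-1 and miR-206 of striated muscle were listed at 0 in all libraries, and the liver miRNA miR-122 did not pass the filter.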

How the data were processed

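Per the labels' protocols, testis RNA was prepared with a Qiagen RNeasy Plus Universal kit, and Illumina TruSeq small RNA libraries followed. The submitters' processing notes name edgeR 3.5, R 3.4, cutadapt 2.6 and FastQC 0.11.8. Which aligner, miRNA reference and build were used is not stated in these sources. The authors deposited 1 table of normalized signal. Divided by the step of each column, 95.3% of 18379 values above 0 came out as whole reads within 0.02 read. The values thus show reads times 1 factor per library. They do not show which method gave the factor, and it was read here as edgeR's TMM. edgeR's quasi-likelihood test on these recovered reads called 36 of 378 miRNAs. A count of 0, taken as up to 3 reads, allows 0.138 to 1.43 units, and such limits cover counting error only.

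The main test was limma 3.58.1 (R 4.3.3) on log2(value + 0.5), with a trend in variance and diet alone as a term, two-sided, over the 387 miRNAs at 1 or more in 15 or more libraries. P-values were adjusted over all of them (Benjamini-Hochberg, threshold 0.05). edgeR 4.0.16 and DESeq2 1.42.0 on the recovered reads were alternatives. The tests were tried on simulated data. Replicate numbers follow accession order. The members, lists and rules were chosen with earlier results of these data known. Named were the 4 members, the 3 miRNAs most like each by Spearman's rho, list entries with the smallest p and neighbours in level. Shared seeds were not analysed here.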

Additional observations from a re-analysis of the deposited data

How the results depend on the processing

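The low read numbers of miR-191b (10 to 68 per library) and miR-425-3p (29 to 420) limit their values. Diet rests on the diet characteristic, which the library code shares in every library and the title contradicts in 18. When each library was left out in turn, the log2 fold change ranged from -0.028 to 0.18 for miR-191, -0.47 to -0.35 for miR-191b, 0.06 to 0.10 for miR-425-3p and 0.22 to 0.25 for miR-425-5p. The diet difference in log2 ratio ranged from 0.12 to 0.18 for the miR-425 arms and from -0.26 to -0.04 for miR-191 over miR-425-5p. The count of miRNAs past the threshold ranged from 0 (without High replicate 5; 75 at an unadjusted p under 0.05) to 45 (without Moderate replicate 5). The r of miR-191 and miR-425-5p ranged from -0.19 to 0.76, that of miR-191 and miR-425-3p from -0.51 to -0.03, and that of the miR-425 arms from 0.25 to 0.48, and the r of miR-191 and miR-191b from -0.21 to 0.37.

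Of the members, miR-425-5p had a positive log2 fold change in every setting but 1. It missed the threshold without a filter (0.24, 838 miRNAs tested), with library totals (0.45), in libraries whose labels give the same diet (0.31, and 0.27 without Moderate replicate 5) or conflict (0.19), and in libraries under 12 megareads (0.25) or above (0.12). By the diet in the titles it stood at 0.013, and -0.014 without Moderate replicate 5. miR-191 stood at -0.41 in edgeR and 0.19 in DESeq2, where it passed; DESeq2 replaced its 198688 reads in Moderate replicate 5 by 25970. It stood at -0.21 by titles (-0.032 in 29 libraries), -0.26 where labels give the same diet, -0.018 in the deeper libraries and -0.0018 with log10 depth as a covariate. Without Moderate replicate 5 it passed with library totals (0.25), edgeR (0.19), DESeq2 (0.19) and under 12 megareads (0.23). miR-425-3p stood at -0.027 and -0.054 by titles in 30 and 29 libraries and at -0.00010 in the 11 libraries with the same diet in both labels, and miR-191b at 0.058 by titles in 29. The difference of the miR-425 arms was -0.14 in the 6 deeper libraries and 0.04 by titles. The cause of these changes was not tested.

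The count of 19 became 36 in edgeR, 50 in DESeq2, 3 under 12 megareads and 2 above. It was 0 without a filter (104 at an unadjusted p under 0.05), with library totals (61), by titles (11, and 13 in 29 libraries), where labels give the same diet (43, and 69 in 11 libraries) and where they conflict (58). Without Moderate replicate 5 it was 31 with library totals, 48 in edgeR, 60 in DESeq2 and 31 under 12 megareads. The r of miR-191 and miR-425-5p was 0.042 with library totals, 0.25 with upper-quartile scaling, 0.55 within High, -0.30 within Moderate, -0.16 for deviations from diet means and 0.74 without the 2 farthest libraries. In 29 libraries it was 0.87, 0.79, 0.71 (within Moderate), 0.64 (deviations from diet means), 0.70 (without the 2 farthest) and 0.86 (under 12 megareads). The r of miR-191 and miR-425-3p was 0.018 with upper-quartile scaling, 0.26 within High, -0.60 within Moderate, -0.47 for deviations from diet means and 0.046 without the 2 farthest. Of these, the values within Moderate and for deviations from diet means passed. In 29 libraries the r of this pair was 0.48 with library totals, which passed. It was 0.075 with upper-quartile scaling and 0.017 under 12 megareads. The r of the miR-425 arms was 0.92 with library totals, 0.61 in 29 libraries and -0.077 within 14 Moderate libraries. None of the pairs with miR-191b passed the threshold, and their signs varied. With miR-191, r was -0.22 with library totals, -0.13 without the 2 farthest libraries and -0.24 in the deeper libraries, and in 29 libraries it was -0.11 with library totals, -0.17 with upper-quartile scaling, -0.023 within Moderate and -0.197 under 12 megareads. With miR-425-5p it was 0.29 with library totals, 0.31 within High, 0.041 and 0.18 for deviations from diet means in 30 and 29 libraries, 0.0092 within 14 Moderate libraries and 0.058 in the deeper ones. With miR-425-3p it was 0.31 with library totals, 0.12 within High, 0.015 and 0.025 without the 2 farthest of 30 and of 29 libraries and 0.029 under 12 megareads in 29.

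No paired analysis was possible because the replicate numbers follow accession order and the labels pair no calves. Alternatives without Moderate replicate 5 other than leaving it out were chosen after seeing the data.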
